A study of Vitis x labruscana x Vitis vinifera with 36 samples.

Results

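A set of 43 flesh-enriched genes was described in berries of the table grape 'Shine Muscat', among the 30661 genes of the count table. The genes were chosen from the counts themselves. For each of the 6 combinations of treatment and stage, the log2 of mean CPM (a gene's counts scaled to a library total of 1e6, with 1 CPM added) in skin was subtracted from that in flesh. A gene entered the set when its VIT identifier had a mean of at least 10 CPM over the 18 flesh libraries and this flesh-minus-skin difference was at least 1.3 in all 6 combinations. Of the 29971 genes with VIT identifiers, 8993 met the CPM minimum, so the set held 0.478% of those that could have entered. The higher level in flesh is what the rule asked for, and it is given below as a description with no test.

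The berry of the grapevine has a thin skin, made of an epidermis with its cuticle and a few layers beneath it, around a flesh of large, highly vacuolated cells. The flesh stores most of the water, sugars and organic acids of the fruit and is crossed by vascular bundles. The skin carries cuticular waxes and is richer in phenolic compounds than the flesh. During ripening the flesh softens, accumulates hexoses and loses acid. Seedless table grapes are commonly produced by treating flower clusters of seeded cultivars with plant growth regulators.

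RNA was sequenced from seedless flesh, seeded flesh, seedless skin and seeded skin at 3 stages numbered 1, 3 and 4, which makes 12 groups of 3 libraries and 36 libraries in all. All berries were of the same genotype, bred from Vitis labruscana and Vitis vinifera parents. By the series title, seedless berries were the treated ones and seeded berries had no treatment, and the study set out to relate aroma volatiles to expression. The sources used here give neither the agent and its dose nor the calendar of the stages, nor how many vines or berries stand behind a library.

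Flesh libraries held 0.609 to 7.34 M counts (M, mega) and skin libraries 1.12 to 5.36 M. The seeded stage 1 libraries were the shallowest, with 0.609 to 1.25 M counts in flesh, against 3.58 to 4.04 M in seedless flesh of that stage. Identifiers stand without gene names in the count table, and annotation was not used here. No function is therefore given for any gene, and the tissue labels were not set against marker genes. The mirror rule, which asks for the same difference in the other direction, found 355 skin-enriched genes. They held 0.446 to 1.24% of the counts in flesh libraries and 4.27 to 7.35% in skin libraries, a gap that their choice fixes.

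Within the set, mean levels over the 18 libraries of a tissue ran between 10.1 and 994 CPM in flesh (median 37.8 CPM) and between 1.40 and 159 CPM in skin (median 6.53 CPM). None of the 43 genes was at 0 in a flesh library, and 6 were at 0 in at least 1 skin library. The flesh libraries lay above the skin libraries without overlap in all 6 combinations for 40 genes and in 5 of them for the other 3. The rule chose the genes on these same libraries, which favours such separation, so these counts are a description only. In such whole-tissue samples, fewer cells of a type and less RNA per cell cannot be told apart.

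The mean flesh-minus-skin difference over the 6 combinations ran between 1.66 and 3.65 on the log2 scale, with a median of 2.15. In seedless berries the median over the 43 genes was 2.11 at stage 1, 2.31 at stage 3 and 2.201 at stage 4. In seeded berries it was 1.94 at stage 1, 1.89 at stage 3 and 1.80 at stage 4. Over all 8993 genes that met the CPM minimum, the corresponding medians lay between 0.05 and 0.14. The difference was larger in seedless than in seeded berries for 26 of the 43 genes at stage 1, 26 at stage 3 and 32 at stage 4. These counts describe genes chosen on these values. The corresponding shares of all genes that met the CPM minimum were not computed. Stage 3 gave the largest difference for 17 genes, stage 1 for 15 and stage 4 for 11, and the rule required the difference at each of them.

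**Figure D1:**
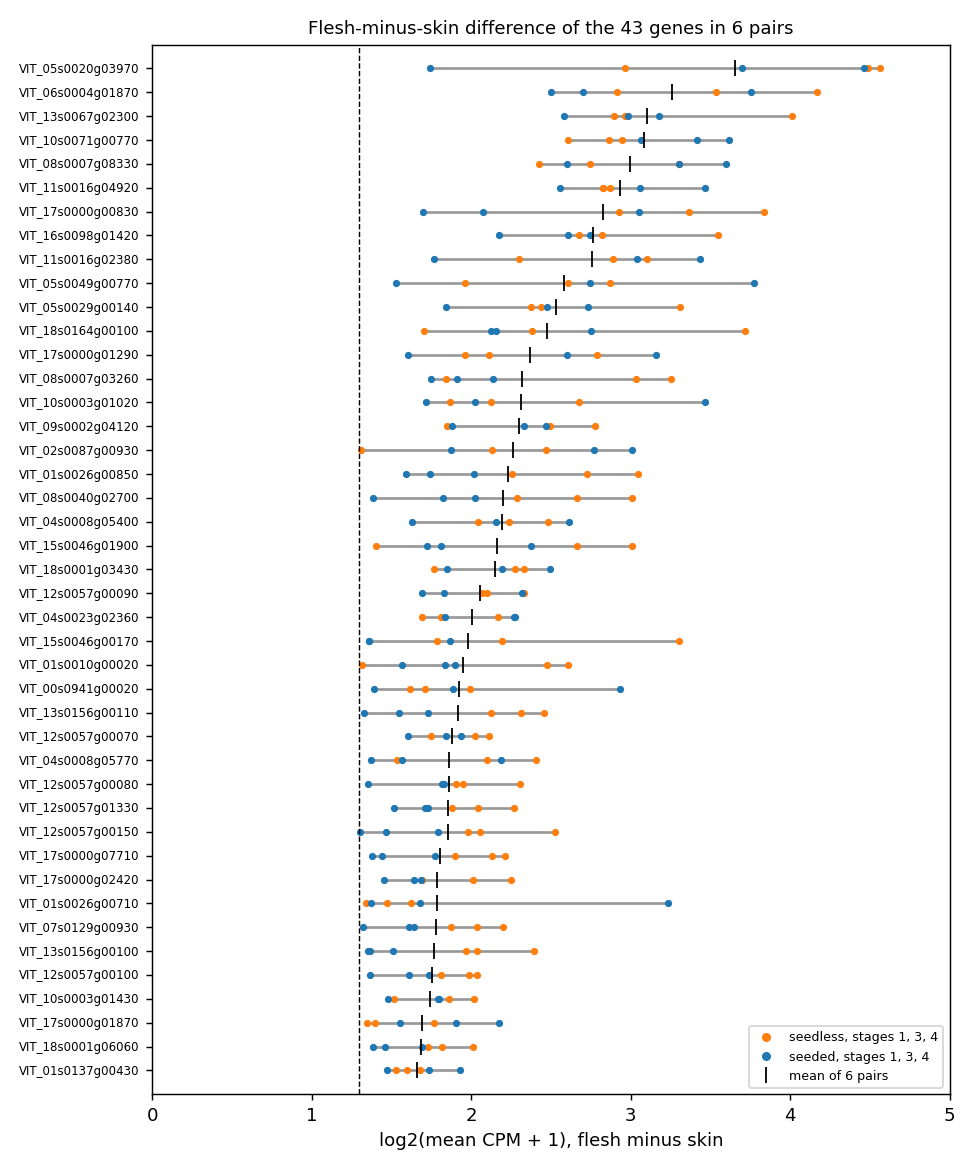
Flesh-minus-skin difference in log2(mean CPM + 1) of the 43 genes (horizontal axis), 1 gene per row in order of its mean over the 6 combinations (tick); orange points are the seedless combinations at stages 1, 3 and 4 and blue points the seeded ones, and the dashed line is the threshold of 1.3. Mean differences run from 3.65 at the top to 1.66 at the bottom, and some genes such as VIT_02s0087g00930 touch the threshold in 1 combination only.

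The widest difference belonged to VIT_05s0020g03970, with a mean of 3.65. In seedless flesh it had 111, 96.1 and 90.8 CPM at stage 1, against 3.98, 4.73 and 1.04 CPM in seedless skin, a difference of 4.56. In seeded flesh at stage 4 it had 30.9, 9.40 and 25.8 CPM, against 6.29, 6.93 and 4.48 CPM in seeded skin, a difference of 1.74. Its difference thus varied widely between groups. Next in order came VIT_06s0004g01870 (3.26), VIT_13s0067g02300 (3.10), VIT_10s0071g00770 (3.09), VIT_08s0007g08330 (3.00), VIT_11s0016g04920 (2.93), VIT_17s0000g00830 (2.83) and VIT_16s0098g01420 (2.76). VIT_06s0004g01870 had group means between 20.3 and 38.6 CPM in flesh and between 0.890 and 2.93 CPM in skin. Its flesh level was called as a fall between stages 3 and 4.

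Genes lay close to the threshold on both sides. Just inside it, the smallest of the 6 differences was 1.31 for VIT_02s0087g00930 and 1.302 for VIT_12s0057g00150. Just outside it, the smallest was 1.2996 for VIT_06s0061g01440 and 1.296 for VIT_03s0180g00040. With a threshold of 1.0 the set would have held 107 genes, and with 1.6 it would have held 20. Without the seeded stage 1 combination, which has the shallowest libraries, the other 5 combinations would have admitted 89 genes. Leaving out any combination can only keep or enlarge the set. No other combination was left out, so the part of those libraries in the size of the set was not tested.

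The rule was also applied to the libraries of 2 replicate numbers and the difference read in the third, which the choice had not used. With replicate 1 held out, 44 genes were chosen and 40 of them had flesh above skin in all 6 combinations of the held-out libraries. With replicate 2 held out these counts were 38 of 40, and with replicate 3 they were 44 of 45. The median difference in the held-out libraries was 1.99, 2.15 and 2.13 for replicates 1, 2 and 3, next to 2.11, 1.998 and 2.10 in the libraries used to choose. Fewer genes passed the threshold of 1.3 in all 6 held-out combinations, namely 19, 21 and 24. Of the genes chosen without replicate 1, 2 or 3, 30, 34 and 34 belonged to the set of 43, so part of the membership changed with the libraries used to choose.

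As a share of all counts, the 43 genes took 0.251 to 0.537% of a flesh library (median 0.450%) and 0.0665 to 0.116% of a skin library (median 0.0864%). In seedless flesh the share was 0.420 to 0.469% at stage 1, 0.480 to 0.498% at stage 3 and 0.428 to 0.520% at stage 4. In seeded flesh it was 0.251 to 0.402% at stage 1, 0.485 to 0.537% at stage 3 and 0.364 to 0.420% at stage 4. Seedless and seeded flesh did not overlap at stage 1 or stage 4, with seedless flesh higher, and they overlapped at stage 3. The 3 genes with most counts made up 50.8% of the summed flesh CPM of the set. Without them the share was 0.175 to 0.267% of a flesh library and 0.0371 to 0.0634% of a skin library, and at stage 1 seedless flesh (0.215 to 0.223%) then overlapped seeded flesh (0.191 to 0.238%). At stage 3 the shares without these 3 genes no longer overlapped, with 0.226 to 0.233% in seedless flesh and 0.195 to 0.213% in seeded flesh, and at stage 4 they were 0.236 to 0.267% and 0.175 to 0.184%. They still held the 5 neighbouring genes of stem 12s0057 described below. Summed, those 5 genes averaged 800 CPM (seedless) and 371 CPM (seeded) at stage 3, and 693 and 111 CPM at stage 4. At stage 3 this difference exceeded the gap between the mean shares (0.231 and 0.205%). At stage 4 it was most of that gap (0.251 and 0.178%). Shares without those 5 genes were not computed.

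Other measures moved along with the stage 1 share. The skin-enriched genes held 0.809 to 0.850% of seedless flesh libraries at stage 1 and 1.20 to 1.24% of seeded flesh libraries. Rows with ENSRNA identifiers took 0.552 to 0.696% of seedless flesh and 0.923 to 3.14% of seeded flesh at that stage, and at stage 3 the order was the other way, with 0.666 to 1.22% of seedless flesh and 0.304 to 0.455% of seeded flesh. At stage 3 the skin-enriched share was again lower in seedless flesh, with 0.570 to 0.642% against 0.772 to 0.885% in seeded flesh, while the flesh-enriched shares of all 43 genes overlapped there. The part of these measures and of depth in the shares was not tested.

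**Figure D2:**
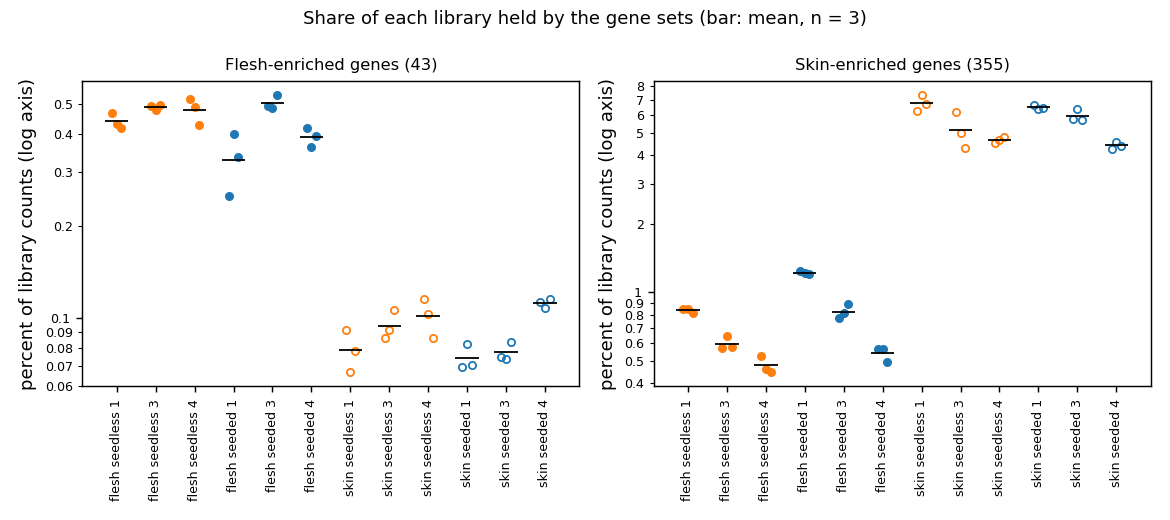
Percent of library counts (log axis) held by the 43 flesh-enriched genes (left) and by the 355 skin-enriched genes (right), for each of the 36 libraries (points) with group means (bars, n = 3); orange is seedless, blue is seeded, filled points are flesh and open points are skin, and the number after the group is the stage. The flesh-enriched share lies between 0.251 and 0.537% in flesh and below 0.12% in skin, and 1 seeded flesh library of stage 1 sits lowest among flesh libraries.

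CPM carries no correction for transcript length, so an order of genes by CPM is an order of counts. VIT_05s0049g00770 had most counts in flesh, with means of 994 CPM in flesh and 159 CPM in skin. At stage 1 it had 1223, 1006 and 909 CPM in seedless flesh and 326, 1304 and 501 CPM in seeded flesh. At stage 3 it had 711, 719 and 788 CPM in seedless flesh, against 2166, 1778 and 2318 CPM in seeded flesh. The stage 3 groups were far apart, while at stage 1 the second seeded library was higher than every seedless one and the other two seeded libraries were lower. Seeded skin of stage 1 was also highest in its second library, with 42.5, 234 and 39.4 CPM. The stage 3 difference was -1.63 ± 0.40 (log2 fold change, seedless minus seeded, ± SE) at an edgeR adjusted p of 0.0190, and those at stage 1 (0.54 ± 0.40, adjusted p = 0.400) and stage 4 (-0.97 ± 0.39, adjusted p = 0.257) did not pass. The stage 3 call was lost in 5 of 12 alternatives, each of which left out 1 library, with adjusted p up to 0.0730, and without replicate 2 of seeded flesh the stage 1 change was 1.33 with an adjusted p of 0.00533.

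VIT_11s0016g04920 came next, with means of 768 CPM in flesh and 102 CPM in skin. It was followed by VIT_01s0137g00430 (470 CPM in flesh, 151 CPM in skin), VIT_18s0001g06060 (211 and 65.8 CPM) and VIT_04s0008g05770 with a flesh mean of 178 CPM. VIT_12s0057g00090, VIT_12s0057g00100 and VIT_10s0003g01430 averaged 152, 143 and 135 CPM in flesh. In all, 9 genes averaged over 100 CPM in flesh and 17 averaged under 30 CPM.

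Differences between seedless and seeded berries were not used by the rule, and they were tested with edgeR among the 18 flesh libraries over 13639 genes, with Benjamini-Hochberg adjustment at 0.05. All 43 genes entered that test. Separate vines or berries are not stated for the replicates, so the p-values reflect only the spread among these libraries, which may be technical. In flesh, 27 of the 43 genes differed between seedless and seeded berries at 1 stage or more and 16 at none. The share that differed at 1 stage or more was 25.8% of all tested genes, and of those with a flesh mean of at least 10 CPM 32.8%. VIT_08s0007g08330 was called in the same direction at all 3 stages, as were 44 of the tested genes (0.323%). VIT_11s0016g04920 was called higher at stages 1 and 3 in that fit, and at stage 4 it passed with DESeq2 (adjusted p = 0.0351) and in an edgeR fit to the compared groups alone (adjusted p = 0.000204).

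At stage 1, 5 of the 43 genes were higher and 6 lower in seedless flesh than in seeded flesh. Of all tested genes 17.1% were called, 8.8% higher and 8.35% lower, and of the genes with a flesh mean of at least 10 CPM 22% were called. The median change of the set was 0.10, against 0.05 over all tested genes. The largest rise was that of VIT_18s0164g00100, which had 55.4, 76.8 and 67.6 CPM in seedless flesh and 9.84, 27.9 and 15.2 CPM in seeded flesh. The groups did not overlap, and the log2 change was 1.96 ± 0.29 (edgeR adjusted p = 7.67e-06). VIT_10s0003g01020 had 73.5, 63.4 and 72.8 CPM in seedless flesh, against 9.84, 26.3 and 19.2 CPM in seeded flesh (1.92 ± 0.23, adjusted p = 1.48e-07). Every seedless library of this gene was above every seeded one.

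Among the genes that were lower at stage 1, VIT_17s0000g01290 had 28.8, 39.1 and 24.0 CPM in seedless flesh and 56.2, 80.5 and 66.3 CPM in seeded flesh (-1.15 ± 0.22, adjusted p = 0.000299). Again the groups were apart. VIT_17s0000g01870 was low in the libraries of this stage, with 6.43, 6.94 and 7.05 CPM in seedless flesh and 21.1, 19.7 and 7.98 CPM in seeded flesh. Its change of -1.15 ± 0.39 passed at an adjusted p of 0.0375, and it missed the threshold in 7 of 12 alternatives, with adjusted p up to 0.211.

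At stage 3, 8 of the 43 genes were higher and 8 lower in seedless flesh, which is 37.2% of the set. Of all tested genes 10.7% were called, 5.15% higher and 5.56% lower, and of those with a flesh mean of at least 10 CPM 13.9%. The median change was 0.25 in the set and 0.01 over all tested genes. VIT_11s0016g04920 had 1445, 1312 and 1275 CPM in seedless flesh and 347, 547 and 446 CPM in seeded flesh. All seedless libraries were above all seeded ones (1.45 ± 0.32, adjusted p = 0.0118), and without replicate 1 of seeded flesh at stage 3 the adjusted p was 0.0630. VIT_04s0023g02360 had 18.5, 13.5 and 14.5 CPM in seedless flesh, against 5.12, 6.33 and 4.36 CPM in seeded flesh (1.41 ± 0.30, adjusted p = 0.00111). This gene was low, and its adjusted p was 0.0897 when all libraries were thinned to the same depth.

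The genes that were lower at stage 3 included the largest change of that stage within the set. VIT_08s0007g08330 had 37.5, 33.8 and 27.9 CPM in seedless flesh and 116, 139 and 156 CPM in seeded flesh, with a change of -2.19 ± 0.20 (adjusted p = 1.25e-08). VIT_10s0003g01020, which was higher in seedless flesh at stage 1, was lower at stage 3, with 45.1, 38.0 and 42.4 CPM in seedless flesh and 119, 107 and 136 CPM in seeded flesh (-1.66 ± 0.16, adjusted p = 7.47e-10). Both genes were clear of overlap. Of the 16 genes called at this stage, 15 (93.8%) had no overlap between the libraries of the treatments, next to 92.7% of all called genes, and without replicate 1 of seeded flesh the count of calls fell to 10.

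At stage 4, 9 of the 43 genes were higher and 3 lower in seedless flesh, together 27.9% of the set. Of all tested genes 3.7% were called, 2.35% higher and 1.35% lower, and of those with a flesh mean of at least 10 CPM 4.87%. The median over the 43 genes was 0.10, against 0.00 over all tested genes. Neighbouring identifiers of the stem 12s0057 made up 5 of the 9 genes that were higher, and outside them 4 of 38 genes were higher and 3 lower.

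VIT_12s0057g00090 had 252, 271 and 179 CPM in seedless flesh at stage 4 and 20.9, 34.0 and 33.6 CPM in seeded flesh (2.93 ± 0.35, adjusted p = 0.000307). VIT_12s0057g00150 had 56.1, 54.0 and 37.5 CPM in seedless flesh, against 6.03, 7.23 and 8.68 CPM in seeded flesh (2.67 ± 0.34, adjusted p = 7.64e-05). The treatments were several-fold apart for both. On the other side, VIT_05s0029g00140 had 8.97, 8.79 and 8.29 CPM in seedless flesh and 32.7, 16.6 and 23.9 CPM in seeded flesh (-1.58 ± 0.25, adjusted p = 4.89e-05), with an adjusted p of 0.189 at equal depth. VIT_08s0007g08330 had 33.0, 24.6 and 36.3 CPM in seedless flesh and 90.5, 68.7 and 90.1 CPM in seeded flesh (-1.49 ± 0.20, adjusted p = 2.95e-05). Neither gene overlapped between the treatments.

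VIT_08s0007g08330 was thus called lower in seedless flesh at each stage. At stage 1 it had 69.9, 41.9 and 54.3 CPM in seedless flesh and 68.9, 136 and 90.2 CPM in seeded flesh. Those groups touched, and the change was the smallest of the 3 stages (-0.83 ± 0.22, adjusted p = 0.00945). The stage 1 call was lost without replicate 2 of seeded flesh (adjusted p = 0.0914) or replicate 2 of seedless flesh (adjusted p = 0.0503). The opposite case is a gene whose direction turned between stages, which held for VIT_18s0164g00100, VIT_10s0003g01020 and VIT_17s0000g01290. The share of all tested genes that turned in this way was not computed.

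**Figure D3:**
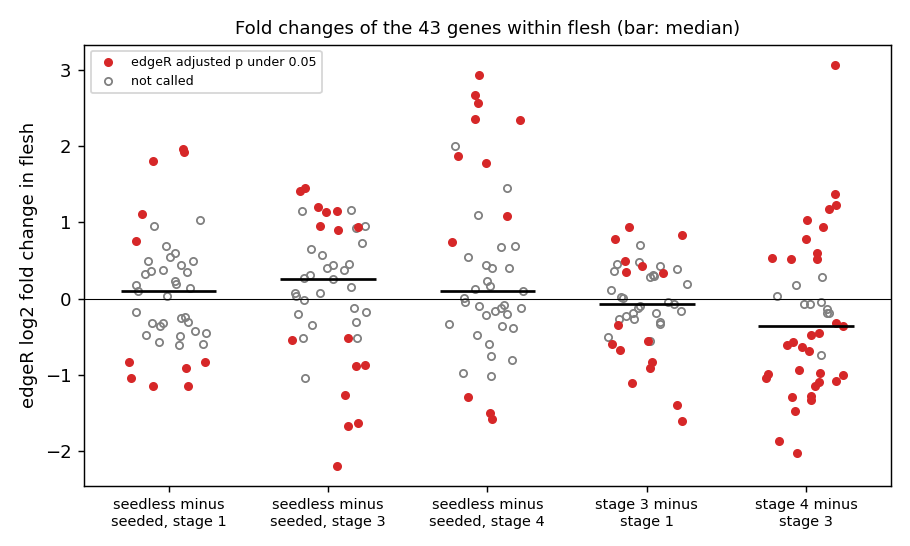
edgeR log2 fold change of each of the 43 genes within flesh (vertical axis) for seedless minus seeded at stages 1, 3 and 4 and for the later minus the earlier stage averaged over the treatments; red points passed an adjusted p of 0.05, grey rings did not, and bars are medians over the 43 genes. The called genes lie on both sides of 0 in every comparison, and the top of the stage 4 comparison reaches 2.93.

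Whether the seedless effect itself differed between stages 4 and 1 was tested as the stage 4 log2 change minus the stage 1 log2 change. The difference passed for 14 of the 43 genes, 8 with a higher and 6 with a lower value at stage 4. Of all tested genes 12.2% passed, 5.8% higher and 6.41% lower, and of those with a flesh mean of at least 10 CPM 16.2%. For VIT_18s0164g00100 it was -3.25 ± 0.36 (adjusted p = 8.96e-08). This gene had 27.2, 16.0 and 21.5 CPM in seedless flesh at stage 4, against 55.8, 41.6 and 49.3 CPM in seeded flesh, the reverse of stage 1. For VIT_10s0003g01020 the difference was -2.26 ± 0.29 (adjusted p = 8.54e-07), and at stage 4 its groups were close, with 26.9, 27.9 and 31.6 CPM in seedless and 41.5, 27.5 and 34.5 CPM in seeded flesh. The largest differences upward were 2.54 ± 0.52 for VIT_12s0057g00150 (adjusted p = 0.00291) and 2.33 ± 0.49 for VIT_12s0057g00090 (adjusted p = 0.00811). Without replicate 3 of seeded flesh at stage 1, the adjusted p of VIT_12s0057g00150 was 0.0501.

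VIT_17s0000g01290 turned the other way. It was lower in seedless flesh at stage 1, while at stage 4 it had 13.9, 13.96 and 17.4 CPM in seedless flesh and 9.05, 5.79 and 5.40 CPM in seeded flesh (1.08 ± 0.26, adjusted p = 0.0102). That stage 4 call was lost at equal depth (adjusted p = 0.271) and without replicate 3 of seedless flesh (0.0561) or of seeded flesh (0.103). The change between the stages was 2.22 ± 0.34 (adjusted p = 1.66e-05). Its mean was lower at each later stage in both treatments, with 30.7, 21.9 and 15.1 CPM at stages 1, 3 and 4 in seedless flesh and 67.6, 28.8 and 6.74 CPM in seeded flesh.

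The identifiers of the set carried chromosome numbers spread over the genome, with most on 12 (6 genes) and 17 (5 genes). Runs of neighbouring identifiers, defined as the same stem with steps of at most 50, held 7 of the 43 genes. The longer run comprised VIT_12s0057g00070, VIT_12s0057g00080, VIT_12s0057g00090, VIT_12s0057g00100 and VIT_12s0057g00150. Their log2 levels over the 18 flesh libraries had pairwise Pearson r of 0.943 to 0.975, while over all pairs of the 43 genes the median r was -0.01. The other run, VIT_13s0156g00100 and VIT_13s0156g00110, had r of 0.265. The points of these correlations share libraries, depth and groups.

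Summed over its 5 genes, the run took 495 ± 93.6 CPM in seedless flesh at stage 1, 800 ± 24.5 CPM at stage 3 and 693 ± 150 CPM at stage 4 (SD, n = 3). In seeded flesh the sum was 290 ± 140 CPM at stage 1, 371 ± 121 CPM at stage 3 and 111 ± 19.3 CPM at stage 4. Seedless flesh was thus high at stage 4, where seeded flesh was at its lowest. Averaged over the treatments, all 5 genes fell between stages 3 and 4 in flesh, with log2 changes of -1.28 to -0.97 (adjusted p of 0.000230 to 0.00479; 0.0748 for VIT_12s0057g00150 at equal depth). By the sums per library, stages 3 and 4 did not overlap in seeded flesh (254, 496 and 363 CPM, then 94.8, 106 and 132 CPM). They did overlap in seedless flesh (811, 817 and 772 CPM, then 796, 763 and 521 CPM). The step between these stages was not tested within each treatment. In skin the sum was 171 ± 32.8 CPM at stage 3 and 165 ± 55.8 CPM at stage 4 in seedless berries. In seeded skin it was 123 ± 49.2 and 27.8 ± 4.51 CPM at these stages.

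All 5 genes were called higher in seedless flesh at stage 4, with log2 changes of 2.34 to 2.93 and adjusted p of 2.95e-05 to 0.00718, and all 5 were called higher in seedless skin, with changes of 2.01 to 3.33 and adjusted p of 0.000286 to 0.0239. The flesh calls held in all alternatives run, while in skin that of VIT_12s0057g00100 was lost in 5 of 12 (adjusted p up to 0.102) and that of VIT_12s0057g00070 in 2 of 12. At stage 1 none of the 5 was called in flesh, with changes of 0.13 to 1.03 and adjusted p of 0.0872 to 0.851, and at stage 3 it was 2 of 5, with changes of 0.90 to 1.15. Near-identical neighbouring genes can share reads, and how the authors' counting treated such reads is not given in the sources used here, so the 5 genes may not be 5 separate measurements.

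The neighbourhood extended beyond the set. Among identifiers of this stem in the same stretch, 13 averaged at least 10 CPM in flesh, and 8 of these were not in the set, of which 7 had a higher mean in flesh than in skin. VIT_12s0057g00170 missed the threshold narrowly, with a smallest difference of 1.28 and means of 130 CPM in flesh and 37.5 CPM in skin. VIT_12s0057g00120 had a smallest difference of 1.18 and means of 67.9 CPM in flesh and 9.54 CPM in skin. At stage 4, 12 of the 13 genes were higher in seedless than in seeded flesh without overlap of libraries, next to 22.6% of all tested genes without overlap in either direction. VIT_12s0057g00020 was the exception, with 76.6, 63.1 and 78.4 CPM in seedless flesh and 68.9, 66.9 and 62.2 CPM in seeded flesh, and it alone was lower in flesh than in skin.

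**Figure D4:**
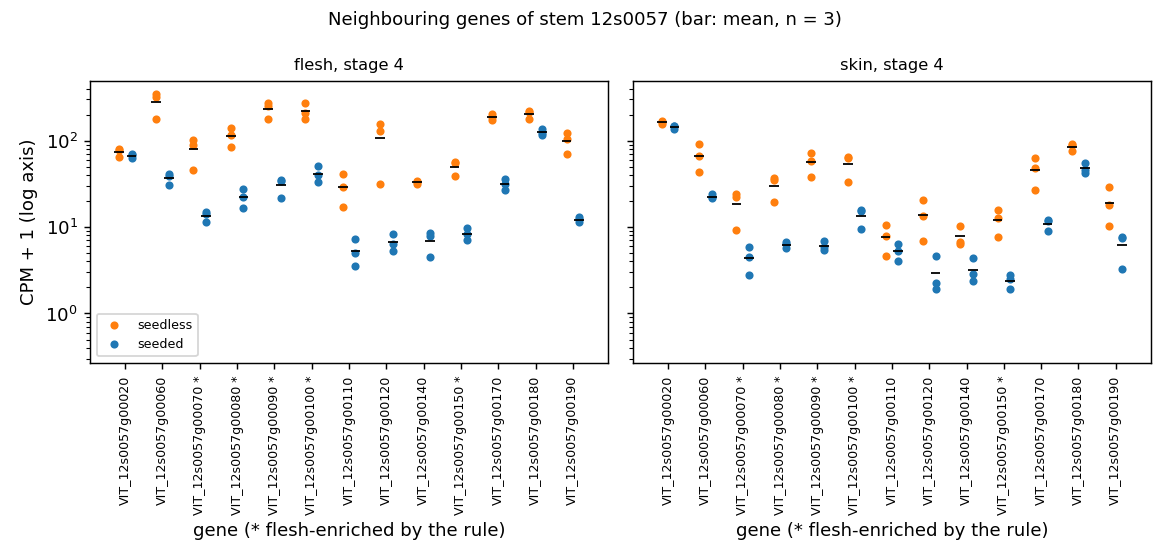
CPM + 1 (log axis) of the 13 neighbouring genes of stem 12s0057 with a flesh mean of at least 10 CPM, in flesh (left) and skin (right) at stage 4; orange points are the 3 seedless and blue points the 3 seeded libraries, bars are means, and an asterisk marks the 5 genes of the flesh-enriched set. Seedless points stand above seeded points for 12 of the 13 genes in flesh.

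Among all genes with a flesh mean of at least 10 CPM, those outside the run most like it over the 18 flesh libraries were its neighbours VIT_12s0057g00060 (r = 0.952 with the run's mean log2 level), VIT_12s0057g00120 (r = 0.947) and VIT_12s0057g00170 (r = 0.935). Among the other 38 genes of the set, the most alike were VIT_07s0129g00930 (r = 0.839), behind 27 genes of the whole table, and VIT_08s0007g03260 (r = 0.783). At stage 4, VIT_07s0129g00930 had 59.9, 62.9 and 38.5 CPM in seedless flesh and 15.8, 11.9 and 14.1 CPM in seeded flesh (1.86 ± 0.20, adjusted p = 1.67e-08). VIT_08s0007g03260 had 47.1, 46.9 and 35.5 CPM in seedless flesh and 7.54, 16.999 and 12.4 CPM in seeded flesh (1.77 ± 0.22, adjusted p = 9.66e-07). At stage 1 neither of the pair was called, with changes of 0.19 ± 0.21 and -0.31 ± 0.24.

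The change of the set with ripening was tested in flesh as the average over both treatments. Between stage 1 and stage 3, 7 of the 43 genes rose and 9 fell, 37.2% of the set. Of all tested genes 17% were called, 8.41% as rises and 8.55% as falls, and of those with a flesh mean of at least 10 CPM 21.7%. Between stage 3 and stage 4, 11 of the 43 rose and 22 fell, 76.7% of the set. Of all tested genes 37.2% were called, 16.6% as rises and 20.6% as falls, and of those with a flesh mean of at least 10 CPM 44.1%. The median change between stages 3 and 4 was -0.36 in the set and -0.01 over all tested genes. Both steps use the stage 3 libraries.

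By pattern over both steps, 7 genes of the set (16.3%) fell at each, 12 (27.9%) fell at the second step alone and 9 (20.9%) rose at the second step alone. Among genes with a flesh mean of at least 10 CPM, these shares were 7.04%, 16.5% and 14.5%, and over all tested genes 5.26%, 14.4% and 13.2%. The 12 that fell at the second step alone include the 5 genes of the run of stem 12s0057, which may not be 5 separate measurements. At that step the summed level of the run went from 371 to 111 CPM in seeded flesh and from 800 to 693 CPM in seedless flesh. Another 3 rose and then fell (6.98% of the set and 0.946% of all tested genes), 3 rose at the first step alone (6.98% and 4.44%), and 6 were called at neither (14% and 55.4%). These patterns are of the average over treatments, and the second step was not tested within each treatment. By group means, none of the 3 that rose and then fell did so in both treatments. At stages 1, 3 and 4, VIT_10s0003g01020 had 69.9, 41.8 and 28.8 CPM in seedless and 18.4, 121 and 34.5 CPM in seeded flesh. VIT_18s0001g06060 had 165, 184 and 222 CPM, against 194, 306 and 193 CPM. VIT_10s0071g00770 had 24.2, 57.2 and 42.9 CPM, against 42.1, 38.2 and 40.7 CPM. VIT_04s0008g05770 was called as a rise at both steps, and its seedless flesh mean was 136 CPM at stage 1, 186 CPM at stage 3 and 297 CPM at stage 4. Its seeded flesh mean was 62.4, 77.2 and 308 CPM at these stages, so the treatments differed at stages 1 and 3 (1.11 ± 0.15 and 1.13 ± 0.13, adjusted p = 1.46e-06 and 3.85e-08) and at stage 4 the change was -0.12 ± 0.12 (adjusted p = 0.730). VIT_17s0000g02420 fell and then rose, and VIT_12s0057g01330 fell at the first step alone.

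VIT_15s0046g00170 had the largest change between stages 3 and 4. At stage 3 it had 28.2, 24.6 and 32.5 CPM in seedless flesh and 8.29, 12.4 and 13.7 CPM in seeded flesh. At stage 4 it had 185, 171 and 238 CPM in seedless flesh and 94.0, 178 and 160 CPM in seeded flesh. Every stage 4 library was above every stage 3 library, and the change was 3.06 ± 0.14 (adjusted p = 1.57e-17). VIT_17s0000g07710 also rose, with means of 38.8 CPM at stage 4 and 13.05 CPM at stage 3 in seedless flesh, and of 25.5 and 9.09 CPM in seeded flesh (1.37 ± 0.18, adjusted p = 8.13e-08).

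VIT_17s0000g00830 fell at both steps, by 1.605 ± 0.29 on the log2 scale at the first (adjusted p = 0.00187) and by 2.02 ± 0.31 at the second (adjusted p = 0.000209). In seedless flesh it had 183, 238 and 242 CPM at stage 1, 61.8, 85.8 and 54.9 CPM at stage 3, and 44.2, 33.0 and 23.3 CPM at stage 4. In seeded flesh it had 363, 251 and 387 CPM at stage 1, 130, 113 and 137 CPM at stage 3, and 39.5, 10.5 and 7.74 CPM at stage 4. The libraries of successive stages did not overlap within either treatment. VIT_05s0020g03970 fell between stages 3 and 4, to 20.8, 14.3 and 13.2 CPM in seedless flesh at stage 4, against 75.3, 79.4 and 66.0 CPM at stage 3, and to 30.9, 9.40 and 25.8 CPM in seeded flesh, against 60.5, 38.6 and 55.3 CPM (-1.86 ± 0.18, adjusted p = 8.41e-08).

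At the first step, VIT_01s0137g00430 was the only called rise in the set with no overlap between the stages. It had 473, 508 and 584 CPM in seedless flesh at stage 3, against 365, 373 and 355 CPM at stage 1, and 463, 452 and 481 CPM in seeded flesh at stage 3, against 186, 250 and 206 CPM at stage 1. The change was 0.78 ± 0.08 (adjusted p = 3.48e-09), and in seedless libraries alone it was 0.41 (adjusted p = 0.0153). VIT_13s0156g00100 fell, with means of 17.8 CPM at stage 3 and 33.6 CPM at stage 1 in seedless flesh, and of 14.7 and 48.0 CPM in seeded flesh (-1.39 ± 0.20, adjusted p = 4.79e-06).

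**Figure D5:**
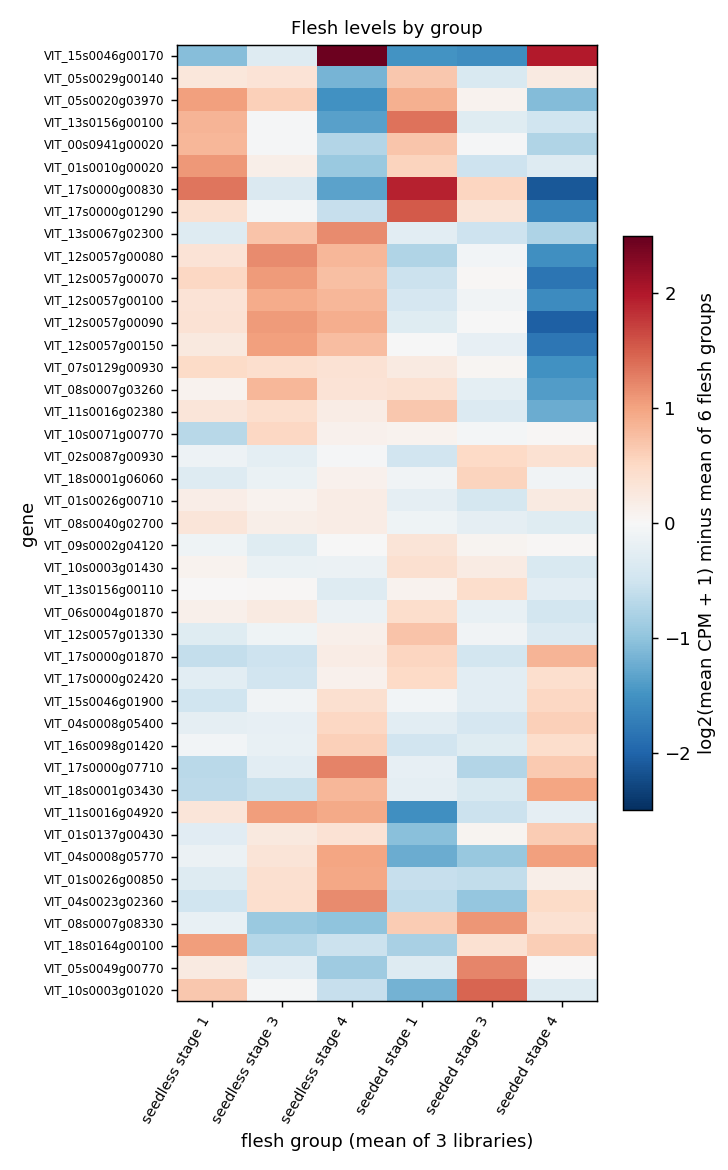
Level of each of the 43 genes (rows) in the 6 flesh groups (columns, means of 3 libraries), as log2(mean CPM + 1) minus the gene's mean over the 6 groups; red is above and blue below that mean, and rows are ordered by likeness of profile. The run of 5 neighbouring genes of stem 12s0057 sits together with the lowest values in seeded flesh at stage 4, and VIT_15s0046g00170 stands out at stage 4 of both treatments.

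The same genes were tested within skin, where 42 of the 43 passed the filter on low counts and VIT_11s0016g02380 did not. At stage 1, 5 of the 42 genes were higher and 7 lower in seedless skin than in seeded skin, where 20.2% of all 14193 tested genes were called, 10.4% higher and 9.87% lower. At stage 3 it was 4 higher and 4 lower, where 10.6% were called, 5.14% higher and 5.47% lower. At stage 4 it was 7 higher and 3 lower, where 3.48% were called, 2.06% higher and 1.42% lower. Between stages 1 and 3, 5 genes rose and 6 fell in skin, where 21.3% of all tested genes were called, 10.1% as rises and 11.2% as falls. Between stages 3 and 4, 10 rose and 10 fell, where 34.2% were called, 15.6% as rises and 18.7% as falls. The 5 genes of the run were among the 7 higher at stage 4 and among the 10 that fell between stages 3 and 4. Both comparisons use the seeded skin libraries of stage 4, and the fall is of the average over treatments. Between stages 3 and 4 the summed level of the run went from 123 to 27.8 CPM in seeded skin. In seedless skin it went from 171 to 165 CPM. Among genes with a flesh mean of at least 10 CPM, the shares called in skin were 24.6%, 13.2% and 4.44% for the treatment at stages 1, 3 and 4 and 25.6% and 41.6% for the stage steps. The stage 3 count in skin was 4 without replicate 3 of seedless skin and 5 without replicate 3 of seeded skin, the stage 1 count was 7 without replicate 3 of seedless skin, and the stage 4 count was 6 without replicate 3 of seeded skin. The count for the step between stages 1 and 3 was 3 in seedless skin libraries alone.

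Genes of the set called in both tissues were called in the same direction in every comparison, and so were 97.7 to 100% of all genes called in both. At stage 1 these were 6 genes, 54.5% of the flesh calls and 50% of the skin calls. At stage 3 they were 6 genes (37.5% and 75%), and at stage 4 they were 6 genes (50% and 60%), namely the 5 genes of the run and VIT_07s0129g00930. For the step between stages 1 and 3 they were 8 genes (50% and 72.7%), and for that between stages 3 and 4 they were 17 genes (51.5% and 85%). Those 17 include the 5 genes of the run. Over all genes tested in both tissues, the shares of flesh and of skin calls were 47.8% and 41% at stage 1, 41% and 41.1% at stage 3, 28.6% and 29.8% at stage 4, 53.5% and 42.6% for the first step and 63% and 67.7% for the second. The rule keeps only genes whose flesh-minus-skin difference holds in every group, so a gene that moved far in 1 tissue alone had less chance to enter, and the shared direction is a description.

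VIT_11s0016g04920 differed between treatments in both tissues. In skin it had 183, 197 and 186 CPM in seedless berries at stage 3, against 37.9, 40.7 and 40.0 CPM in seeded berries (2.17 ± 0.21, adjusted p = 1.81e-06). At stage 4 it had 194, 186 and 128 CPM in seedless skin and 56.6, 75.4 and 65.9 CPM in seeded skin (1.29 ± 0.21, adjusted p = 0.00112), whereas its flesh change of 1.097 ± 0.32 at that stage did not pass (adjusted p = 0.0919; 0.0351 by DESeq2 and 0.000204 in the compared groups alone). The difference between the tissues' changes was not tested.

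VIT_17s0000g00830 was lower in seedless skin at stage 1, with 29.6, 20.6 and 11.4 CPM, against 127, 90.4 and 88.5 CPM in seeded skin (-2.39 ± 0.41, adjusted p = 0.000774). At stage 3 it had 4.38, 3.30 and 3.70 CPM in seedless skin and 12.5, 6.42 and 24.1 CPM in seeded skin (-1.99 ± 0.53, adjusted p = 0.0276), which missed the threshold in 5 of 12 alternatives with adjusted p up to 0.104. VIT_01s0026g00710 had no read in the 3 seeded skin libraries of stage 1 and 39 reads in those of seedless skin. With a floor of 3 counts over the group, which is 0.550 CPM, the seedless mean of 3.42 CPM was at least 6.22-fold higher (adjusted p = 0.00119). Limits set by counts cover counting error only.

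Over the 12 group means of both tissues, the genes of the whole table most like VIT_05s0049g00770 were VIT_03s0038g04700 (Pearson r = 0.964 of log2 levels), VIT_03s0038g03270 (r = 0.955) and VIT_10s0003g01020 (r = 0.953). VIT_10s0003g01020 belongs to the set and the others do not. All 4 share the libraries over which the likeness was computed.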

How the data were processed

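RNA was extracted from skin and flesh separately and made into libraries by Lasy-seq, a method that indexes samples at reverse transcription, per the labels' protocols. The deposited table holds raw read counts per gene with no normalization; fastp 0.20.0, HISAT2 2.2.1 and featureCounts are named in the submitters' processing notes. The sources used here do not give the genome build, annotation, strand setting or handling of shared reads. Columns were tied to the 36 samples by treatment, stage, tissue and number.

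CPM was computed from column totals. Treatment and stage were tested with edgeR 4.0.16 in R 4.3.3, separately in the 18 libraries of each tissue with 6 groups: filterByExpr with a minimum count of 10, TMM scaling, the robust quasi-likelihood test and Benjamini-Hochberg adjustment over all genes, at 0.05. The SE is the log2 change over the square root of F. The test was checked on simulated data. Alternatives were DESeq2 1.42.0, RLE factors, no filter, a replicate block, thinning to 608901 counts per library, the compared groups alone and leaving out each library. Leaving the seeded stage 1 pair out of the rule and testing seedless libraries alone were chosen after seeing the data.

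The genes of the set and the lists were chosen with earlier results of these data known. Named are the 8 genes with most flesh counts, the 8 with the largest mean difference, the 2 on each side of the threshold, neighbouring runs, genes alike at all 3 stages, and per comparison the 2 largest rises and falls among called genes without overlap (the overlap condition does not apply to the difference of stage effects); genes added for their likeness or turning direction were chosen after their values were seen. The planned rule took 3 rises and falls, and 2 were kept because identifiers carry no names. Planned lists of product classes, cell type markers and promoter motifs were not applied, since no annotation or sequence was used here.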

Additional observations from a re-analysis of the deposited data

Results flagged for a closer look

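The seedless effect in flesh differed between stages 4 and 1 for 14 of the 43 genes, by the edgeR test of the difference itself. Of all tested genes 12.2% passed. Listed here are 5 of the 14, namely the 2 largest changes in each direction and VIT_17s0000g01290, added for its turning direction. The stage 4 log2 change minus the stage 1 log2 change was -3.25 for VIT_18s0164g00100 and -2.26 for VIT_10s0003g01020, and it was 2.54 for VIT_12s0057g00150, 2.33 for VIT_12s0057g00090 and 2.22 for VIT_17s0000g01290. All 5 values rest on the seeded flesh libraries of stage 1, which held 0.609 to 1.25 M counts. Over 18 alternatives the change ran between -3.63 and -3.01 for VIT_18s0164g00100 and between -2.504 and -1.91 for VIT_10s0003g01020, and the call held in each. For VIT_12s0057g00090 it ran between 1.91 and 2.62 with adjusted p up to 0.0402, and for VIT_12s0057g00150 between 1.79 and 2.95 with adjusted p up to 0.0501. For VIT_17s0000g01290 it ran between 2.05 and 2.69, and the call held in each alternative.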

How the results depend on the processing

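Of 175 alternative counts, 161 stayed within 1.5 times the reported one, and of 973 alternative tests of named genes 929 kept their direction and side of the threshold, with 0 reversed. The set held 107 genes at a threshold of 1.0, 20 at 1.6 and 89 without the seeded stage 1 pair. It held 39 genes at equal depth, 26 of them shared. Leaving out 1 replicate number gave 40 to 45 genes. Leaving out 1 library gave 8 to 10 called genes in flesh for the treatment at stage 1, 10 to 18 at stage 3, 10 to 14 at stage 4, 10 to 16 for the change between stages 4 and 1, and 12 to 16 and 30 to 33 for the stage steps. In skin it gave 7 to 12 at stage 1 (7 without replicate 3 of seedless skin), 4 to 9 at stage 3 (4 without replicate 3 of seedless and 5 without replicate 3 of seeded skin), 6 to 9 at stage 4 (6 without replicate 3 of seeded skin), and 8 to 11 and 18 to 20 for the steps. At equal depth only 17 genes could be tested in skin, with 6, 4 and 5 called for the treatment at stages 1, 3 and 4 and 4 and 9 for the steps. Seedless skin libraries alone gave 3 for the first step. DESeq2 called 11 higher and 7 lower in flesh at stage 3. A replicate block gave 11, 18 and 14 calls in flesh at stages 1, 3 and 4, against 11, 16 and 12, and changed no named call. Libraries of the same number in different groups of a tissue deviated together with r of only -0.20 to 0.22, so the numbers were not taken as pairs. Low genes are limited by depth, most of all in seeded stage 1 libraries.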

Other observations

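Within some groups, most of the neighbouring genes of stem 12s0057 had their lowest value in the same library. In seedless flesh at stage 4, replicate 3 was lowest for 12 of the 13 neighbouring genes, and in seedless skin at stage 4 it was also replicate 3, for 12 of 13. In seeded berries at stage 3, replicate 1 was lowest for 10 of 13 genes in flesh and 11 of 13 in skin. At stage 1 it was lowest for 10 of 13 in both tissues of seeded berries. The tissues were less alike in the other groups. Replicate 1 was lowest for 11 of 13 genes in seedless flesh at stage 1 and 6 of 13 in skin. In seeded berries at stage 4 it was 8 and 5 of 13. In seedless berries at stage 3 it was 5 of 13 in each tissue. Summed over the 5 genes of the set, seedless flesh at stage 4 had 796, 763 and 521 CPM and seedless skin 208, 186 and 102 CPM. The sums in seeded berries at stage 3 were 254, 496 and 363 CPM in flesh and 66.4, 155 and 148 CPM in skin. Over all 43 genes, replicate 3 of seedless flesh at stage 4 was lowest for 20. The labels do not say whether flesh and skin libraries of the same number came from the same berries, and this was not tested.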
